A study of Mus musculus with 47 samples.

Results

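Among the leukaemic spleens of 47 mice, 7 had a high level of Cd3d, a chain of the CD3 complex of the T cell receptor, together with a low level of Vpreb1, a surrogate light chain gene of B cell precursors. The 7 spleens were chosen by their measured levels: 32 arrays had Vpreb1 at or below a log2 value of 7, and of these the 7 with Cd3d above 7 are called Cd3d-high and the other 25 Cd3d-low. The remaining 15 arrays, with Vpreb1 above 7, were left out, including 2 that also had Cd3d above 7. Expression was measured on Affymetrix Mouse Genome 430 2.0 arrays, with 1 array per mouse, and every value is a log2 expression value normalised by the authors.

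All mice carried Tg(ACTB-cre)2Mrt, which expresses Cre recombinase from the actin promoter in all tissues, and Gt(ROSA)26Sortm2(sb11)Njen, the Sleeping Beauty transposase that Cre switches on. The third allele was a transposon array, labelled TgTn(sb-T2/Onc2)6113Njen for Cd3d-high spleens 1 to 3 and TgTn(sb-T2/Onc2)6070Njen for spleens 4 to 7, and both lines were labelled among the Cd3d-low spleens. An insertion in Erg was labelled for 5 of the 7 Cd3d-high spleens, numbers 3 to 7, and for 16 of the 25 Cd3d-low spleens. Ages, in a unit the labels do not give, ran from 47 to 97 in the Cd3d-high and from 32 in the Cd3d-low mice. Which of these labels belongs to which array is in doubt, since the sex label matched the transcripts in only 3 of the 7 Cd3d-high arrays. A mobile transposon can activate or disrupt genes where it inserts, so each tumour carries its own insertions. Every spleen was labelled as tumour tissue from an undifferentiated myeloid leukaemia at the terminal stage, and no spleen had a label of T cell disease. The numbers 1 to 7 follow the order of deposition and serve only as names. The study has no spleen without the transposon system among the arrays used here.

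T cells recognise antigen through a receptor whose variable chains are joined from gene segments by the Rag recombinase and which signals through the CD3 chains. In the thymus, Notch1 signalling directs precursors into the T lineage, where Bcl11b, Gata3 and Tcf family factors fix the fate before receptor rearrangement and the choice between the Cd4 and Cd8 co-receptors. A spleen normally holds mature T cells, while T cell precursors that express Rag1, Dntt or Ptcra belong to the thymus. In mice the spleen is also a site of red cell formation.

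The promoters of Cd3d, which set the sides, and of the tested genes Cd3g and Rag1 are shown here. Each is the reference sequence of the 250 bases before the start of the gene (RefSeq, GRCm38.p6), 5′ to 3′ on the gene's own strand. Cd3d and Cd3g are neighbouring genes read in opposite directions. Rag1 is a recombinase gene whose level differed among the Cd3d-high spleens, and it was singled out after its values were seen. The Cd3d stretch is chr9:44981536-44981785 on the plus strand, the Cd3g stretch chr9:44980432-44980681 on the minus strand and the Rag1 stretch chr2:101649533-101649782 on the minus strand. Capitals mark matches, on either strand, to TGGGAA (the core letters bound by RBPJ, the DNA-binding partner of Notch), CTTTGA (TCF and LEF factors), TGTGGT (RUNX), CGGAAG (ETS), CAGNTG (E proteins) and AGATAA for GATA factors.
Cd3d: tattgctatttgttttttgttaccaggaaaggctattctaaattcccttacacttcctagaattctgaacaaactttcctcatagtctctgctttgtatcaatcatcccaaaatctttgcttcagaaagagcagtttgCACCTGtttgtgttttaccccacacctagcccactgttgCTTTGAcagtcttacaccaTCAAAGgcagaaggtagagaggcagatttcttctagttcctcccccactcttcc
Cd3g: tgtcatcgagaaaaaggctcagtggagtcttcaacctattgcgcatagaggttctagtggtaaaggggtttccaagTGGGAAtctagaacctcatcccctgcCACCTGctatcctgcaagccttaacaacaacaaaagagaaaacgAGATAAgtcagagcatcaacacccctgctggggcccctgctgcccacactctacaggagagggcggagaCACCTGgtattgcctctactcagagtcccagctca
Rag1: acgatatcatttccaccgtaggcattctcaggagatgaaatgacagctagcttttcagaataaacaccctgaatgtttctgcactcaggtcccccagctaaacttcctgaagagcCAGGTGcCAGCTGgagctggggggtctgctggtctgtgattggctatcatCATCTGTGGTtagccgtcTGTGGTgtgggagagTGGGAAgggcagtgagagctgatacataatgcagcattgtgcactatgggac
The Cd3d stretch held 2 TCF/LEF matches and 1 E protein match. The Cd3g stretch held 1 RBPJ, 2 E protein and 1 GATA match. The Rag1 stretch held 1 RBPJ, 2 RUNX and 3 E protein matches, of which 1 E protein match overlaps a RUNX match, and 0 of the 3 stretches held the ETS letters. The stretches of Dtx1, Gata1 and Klf1, not shown, were searched too. Those of Dtx1 and Gata1 held 0 matches to any of these letters, and that of Klf1 held 1 RUNX and 1 E protein match. Such short motifs are common: of 27025 promoters of the same length, 21.5% held the RBPJ letters, 14% the TCF/LEF letters, 14.2% the RUNX letters, 13.8% the ETS letters, 44.5% the E protein letters and 10.3% the GATA letters. Of the promoters of 63 tested members of the 4 T cell lists described later, 19 (30.2%) held the RBPJ letters, 7 (11.1%) the TCF/LEF letters, 6 (9.52%) the RUNX letters, 3 (4.76%) the ETS letters, 28 (44.4%) the E protein letters and 8 (12.7%) the GATA letters. The RBPJ letters were in 21% of the promoters of all genes higher in the Cd3d-high spleens and in 25% of those of the erythroid list, and these shares were not compared by a test. A match describes letters only and does not show that a factor binds there.

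The level of Cd3d, which chose the spleens and was not tested, ran from 7.46 to 10.23 in the Cd3d-high spleens with a median of 9.42, and from 5.24 to 6.79 in the Cd3d-low spleens with a median of 5.39. Just inside the threshold lay spleen 3 at 7.46, and just outside it lay 2 Cd3d-low spleens at 6.79 and 6.54. The next Cd3d-low spleen was at 5.94. Vpreb1, also used in the choice, ran from 5.18 to 5.30 in the Cd3d-high spleens and reached 6.71 in the Cd3d-low spleens. The median of an array was 5.19 to 5.24, so values near 5 sit at the floor of the array. Differences of dim genes are compressed on this scale.

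Because the sides were set by Cd3d, the tests ask which genes went with Cd3d across these spleens. A T cell gene that differed is a description of that relation and no independent support for the label. Bulk tissue was measured, so fewer cells of a type and less RNA per cell cannot be told apart. Of 18156 genes tested with limma, 1868 (10.3%) were higher and 1848 (10.2%) lower in the Cd3d-high spleens at a Benjamini-Hochberg adjusted p under 0.05, and the median difference over all genes was -0.01. Calls were thus split evenly, with 50.27% higher; after each array was centred on its own median, 1697 genes were higher and 3795 lower, or 30.9% higher. In 65 genes (0.358%) every Cd3d-high spleen lay above every Cd3d-low spleen, and in 0 genes every Cd3d-high spleen lay below.

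**Figure D1:**
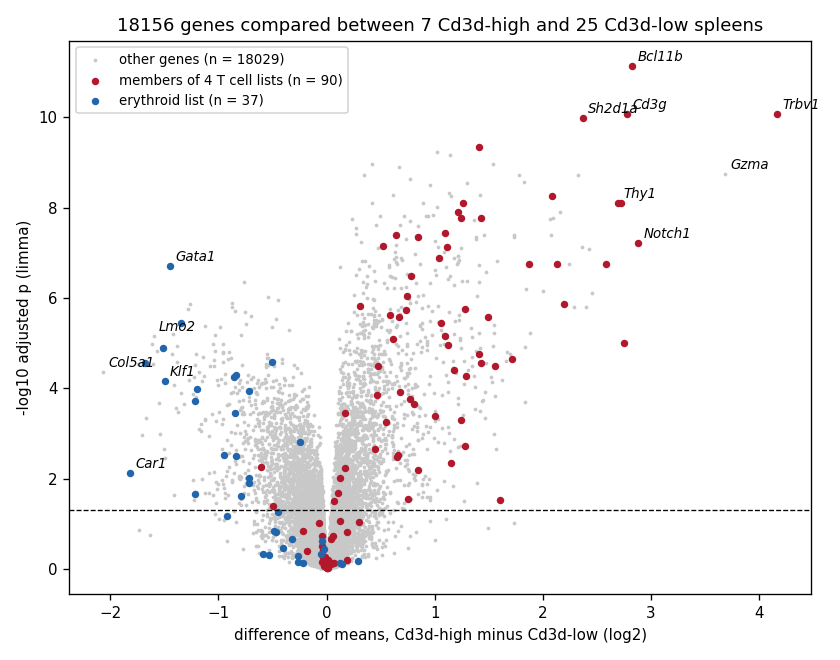
Difference of means (x axis, log2, Cd3d-high minus Cd3d-low) against the -log10 of the limma adjusted p (y axis) for 18156 genes, with the 90 members of 4 T cell lists in red and the 37 erythroid members in blue; the dashed line is the threshold of 0.05. The T cell members lie mostly to the right, with Trbv1 at 4.17, and the called erythroid members to the left, with Car1 at -1.81.

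Genes of the T cell receptor complex were higher in the Cd3d-high spleens. Trbv1, a variable segment of the receptor beta chain, was at 8.56 to 10.96 in the Cd3d-high spleens (median 9.74) and 5.12 to 7.99 in the Cd3d-low spleens (median 5.34), and the difference of means was 4.17 ± 0.31 (SE, 7 against 25 spleens; limma adjusted p = 8.47e-11), or 17.9-fold. The groups did not overlap, and the highest Cd3d-low value belonged to the spleen with Cd3d at 6.79. A probe set named for one segment can also read related segments, so these values may not be of Trbv1 alone. Cd3g, the CD3 gamma chain, was at 7.38 to 9.09 (median 8.50) against 5.13 to 6.56 (median 5.29), a difference of 2.78 ± 0.21 (limma adjusted p = 8.47e-11). Every Cd3d-high spleen lay above every Cd3d-low spleen for Cd3g too, with spleens 1, 3 and 4 between 7.38 and 7.45 and spleens 2, 5, 6 and 7 at 8.50 or more.

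Cd247 and Cd3e, which encode other CD3 chains, were higher too. Cd247, the zeta chain, was at 5.60 to 7.08 against at most 5.43 (difference 1.21 ± 0.12, limma adjusted p = 1.23e-08), again without overlap. Cd3e was at 5.60 to 6.59 against at most 5.71 (0.85 ± 0.09, limma adjusted p = 4.42e-08), and spleens 1 and 3 lay within the range of the Cd3d-low spleens. Of the list of CD3 and T cell receptor genes, 9 members were tested, of which 7 were higher and 0 lower, with a median difference of 0.85 against -0.01 over all genes. Trbv13-2, another beta segment, was at 5.15 to 5.53 in the Cd3d-high spleens and reached 6.18 in the Cd3d-low spleens, a difference of 0.01 (limma adjusted p = 0.956).

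Segments of the other receptor chains differed from spleen to spleen. Trgv1, a gamma chain segment, was highest in spleen 4 at 8.54 and lowest in spleen 3 at 5.73, against at most 6.23 in the Cd3d-low spleens (difference 2.06 ± 0.21, limma adjusted p = 1.81e-08). Trav9d-3, an alpha chain segment, was highest in spleen 5 at 9.37 and lay at 6.33, 5.79 and 6.21 in spleens 1, 3 and 4, inside the Cd3d-low range, which ended at 6.40 (1.88 ± 0.27, limma adjusted p = 5.78e-06). Of its 4 other probe sets, 2 were called in the same direction. Trgv4 was at 6.26 to 9.05, with spleen 5 lowest, but 7 of the 25 Cd3d-low spleens were also above 7 for it (1.57 ± 0.37, limma adjusted p = 0.00223). Spleen 5 alone had Trav6-3 above the floor, at 6.34 against 5.03 to 5.07 in the other 6, and Trav12n-2 at 6.05 against at most 5.37. Spleen 5 thus had the highest alpha segment signals and the lowest Trgv4 of the 7, while spleen 4 had the highest Trgv1. These segments were singled out after their values were seen, and probe sets named for one segment can also read closely related segments.

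**Figure D2:**
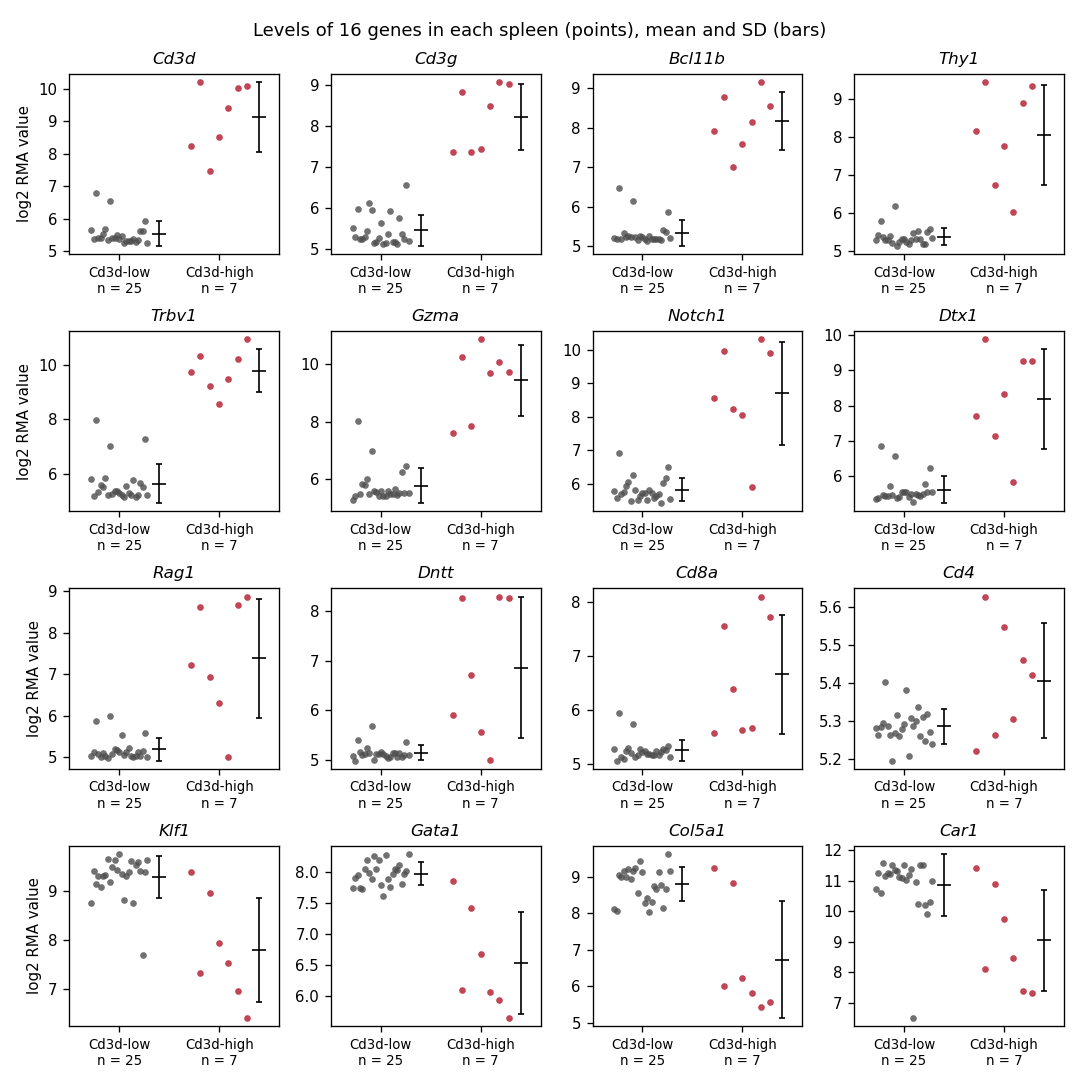
Log2 RMA value (y axis) of 16 genes in each of 25 Cd3d-low (grey) and 7 Cd3d-high (red) spleens, in the order of the arrays, with the mean and SD of each group as a bar; each panel has its own axis, which does not start at 0. Cd3g, Bcl11b and Trbv1 do not overlap between the groups, and Cd3d cannot overlap because it set the groups. Spleen 5 falls among the Cd3d-low spleens for Notch1, Dtx1, Rag1 and Dntt.

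Genes of receptor signalling and the co-receptors followed Cd3d. Of 32 tested members of that list, 27 were higher and 0 lower, with a median difference of 0.83, and in 8 of them every Cd3d-high spleen was above every Cd3d-low spleen. Sh2d1a, the adaptor SAP of SLAM family receptors, was at 5.89 to 8.33 (median 7.67) against at most 5.58 (2.37 ± 0.18, limma adjusted p = 1.03e-10). Cd2, an adhesion receptor of T cells, was at 6.05 to 8.74 against at most 5.93 (2.09 ± 0.20, limma adjusted p = 5.34e-09). Both groups were separate for both genes, with spleen 3 the lowest of the Cd3d-high spleens.

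Thy1, a surface glycoprotein of mouse T cells, was at 6.03 to 9.47 (median 8.15) against 5.13 to 6.18 (2.69 ± 0.26, limma adjusted p = 7.7e-09). Spleen 5 was at 6.03, below the highest Cd3d-low spleen, although its Cd3d was 9.42. Skap1, a signalling adaptor, was at 5.61 to 7.08 against at most 5.44 (1.41 ± 0.11, limma adjusted p = 4.51e-10). Further members that were higher included Ptpn22, a phosphatase that limits receptor signalling (1.50 ± 0.20), Lat, the membrane scaffold of the receptor (1.28 ± 0.29), and Lcp2, the adaptor SLP-76 (1.25 ± 0.25). The kinase gene Zap70 did not pass the test (-0.04 ± 0.05, limma adjusted p = 0.651), and neither did Vav1 (0.04 ± 0.09, limma adjusted p = 0.785).

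Several genes outside the lists that lay above the whole Cd3d-low range are also known from lymphocyte signalling. Camk4, a calcium-dependent kinase, differed by 1.83 ± 0.17, Prkcb, protein kinase C beta, by 1.78 ± 0.16, Slamf6, a SLAM family receptor, by 1.30 ± 0.12, and Pag1, a membrane adaptor, by 1.45 ± 0.15. Ablim1, an actin-binding protein, was at 6.58 to 8.86 against at most 6.25 (2.32 ± 0.21, limma adjusted p = 1.84e-09). Only 1 of the 3 other probe sets of Ablim1 was called in the same direction. Camk4, Prkcb, Slamf6 and Pag1 were singled out after their values were seen, and their limma adjusted p-values ran from 1.84e-09 to 3.97e-08.

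Of the 29 tested members of the list of T lineage transcription factors and Notch genes, 19 were higher, 0 were lower and 10 did not pass, with a median difference of 0.66. Bcl11b, the zinc finger factor required for T lineage commitment, was at 7.01 to 9.17 (median 8.16) against 5.12 to 6.49 (median 5.23), a difference of 2.83 ± 0.18 (limma adjusted p = 7.16e-12), or 7.10-fold. Its groups did not overlap, and it had the smallest adjusted p of the genes named here. Satb1, a chromatin organiser of thymocytes, was at 6.25 to 9.19 against at most 6.36 (2.72 ± 0.26, limma adjusted p = 7.7e-09), with spleens 1 and 3 inside the Cd3d-low range. Lef1, a partner of beta-catenin in T and B precursors, was at 6.19 to 9.38 (2.75 ± 0.41, limma adjusted p = 1.01e-05), but 1 Cd3d-low spleen was at 9.82, above all 7. Gata3 differed by 1.10 ± 0.12 and Tox by 1.04 ± 0.12, with spleen 3 lowest and spleen 5 highest for both. Ikzf3 (Aiolos) differed by 1.43 ± 0.14 and Tcf12, an E protein, by 1.24 ± 0.13.

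Notch1, the receptor that initiates the T cell programme, was at 5.90 to 10.31 (median 8.56) against 5.41 to 6.92 (median 5.72), a difference of 2.88 ± 0.31 (limma adjusted p = 5.99e-08). In 6 spleens it lay between 8.03 and 10.31, above every Cd3d-low spleen, and in spleen 5 it was at 5.90, inside the Cd3d-low range. Dtx1, a transcriptional target of Notch, had the same split, with 7.13 to 9.89 in 6 spleens and 5.83 in spleen 5, against at most 6.86 (2.58 ± 0.30, limma adjusted p = 1.8e-07). The other probe set of Dtx1 was not called. The Notch targets Nrarp (0.66 ± 0.16, limma adjusted p = 0.00296) and Hes1 (0.47 ± 0.09, limma adjusted p = 0.00014) differed less, and spleen 5 was the lowest of the 7 for both, at 5.53 and 5.44.

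The members of this list that did not pass included Runx1, Runx3, Hes5, Hey1 and Myc, and Myc, a growth regulator downstream of Notch in T cell leukaemia, differed by -0.21 ± 0.10 (limma adjusted p = 0.146). Over the 4 T cell lists together, which also hold the thymocyte genes that follow, 90 distinct genes were tested, 63 were higher and 2 lower, and 15 were above the whole Cd3d-low range.

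Several genes of immature thymocytes divided the 7 spleens. Of those given here, Rag1, Rag2, Dntt and Ptcra were singled out after their values were seen. Rag1, a subunit of the recombinase, was at 7.24, 8.62, 6.94, 6.31, 5.01, 8.68 and 8.88 in spleens 1 to 7, against 4.98 to 5.99 in the Cd3d-low spleens (2.19 ± 0.29, limma adjusted p = 1.33e-06). Dntt, the polymerase that adds bases at receptor joins, was at 5.91, 8.27, 6.71, 5.57, 5.00, 8.30 and 8.27 against at most 5.67 (1.72 ± 0.27, limma adjusted p = 2.18e-05). Spleens 2, 6 and 7 were high for both genes, spleens 1, 3 and 4 were intermediate or low, and spleen 5 was at the floor.

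Ptcra, the pre-T cell receptor alpha chain, repeated that order in part: spleens 2, 6 and 7 were at 7.61 to 7.69, spleen 1 at 6.43, spleen 4 at 5.67 and spleens 3 and 5 at 5.34 and 5.16, against at most 5.61 (1.29 ± 0.22, limma adjusted p = 5.32e-05). Il2ra, the alpha chain of the interleukin receptor expressed by early thymocytes and regulatory T cells, was at 7.61 to 8.06 in spleens 2, 6 and 7, at 6.40 in spleen 1 and at 5.10 in spleen 5, against at most 5.36 (1.42 ± 0.23, limma adjusted p = 2.68e-05). Rag2 left the Cd3d-low range, which ended at 5.15, in spleens 2, 6 and 7 only, at 6.02, 6.33 and 5.94 (0.44 ± 0.10, limma adjusted p = 0.00216). Endou, a thymocyte gene, was at 8.62 to 8.82 in spleens 2, 6 and 7 and at 6.04 and 6.11 in spleens 4 and 5 (2.13 ± 0.25, limma adjusted p = 1.8e-07). Themis and Rmnd5a, also of the thymocyte list, were above every Cd3d-low spleen in all 7, spleen 5 included. Themis was at 5.60 to 7.04 against at most 5.46 (limma adjusted p = 7.51e-08). Rmnd5a was at 7.07 to 7.84 against at most 6.95 (limma adjusted p = 3.21e-07). Both were highest in spleens 2, 6 and 7.

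The co-receptors differed from each other. Cd8a was at 7.56, 8.11 and 7.73 in spleens 2, 6 and 7, at 6.39 in spleen 3 and at 5.58 to 5.68 in spleens 1, 4 and 5, against at most 5.96 (1.41 ± 0.22, limma adjusted p = 1.7e-05). Cd8b1 was at 7.05 to 7.41 in spleens 2, 6 and 7 and at 5.35 in spleen 4 (1.28 ± 0.17, limma adjusted p = 1.72e-06). Cd4 stayed at the floor, at 5.22 to 5.63 against 5.20 to 5.40 (0.12 ± 0.03, limma adjusted p = 0.00939), and without spleen 2 its adjusted p was 0.0583. Its other probe set was not called. Of the 27 tested thymocyte stage genes, 17 were higher and 2 lower, with a median difference of 0.68. The 2 lower members were Cd24a (-0.61 ± 0.16), which is high on immature blood cells of many lineages, and Cd44 (-0.49 ± 0.17), an adhesion molecule.

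**Figure D3:**
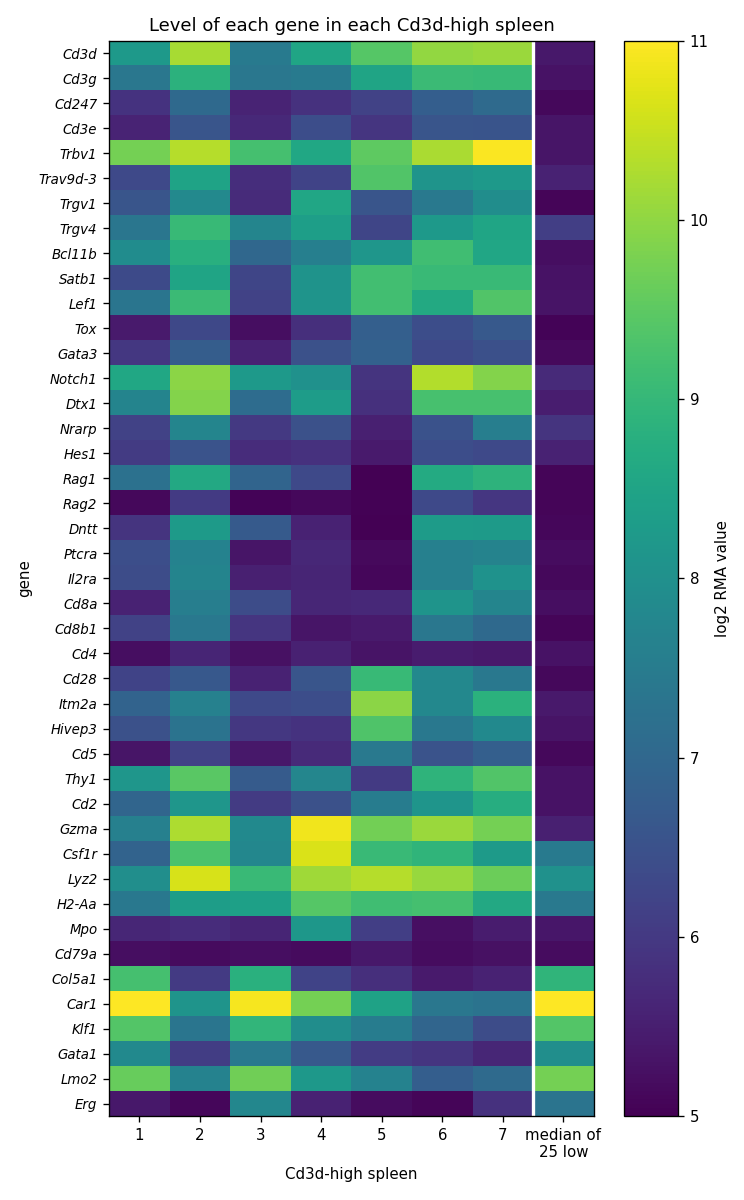
Log2 RMA value (colour) of 43 genes (rows) in the 7 Cd3d-high spleens (columns 1 to 7) and the median of the 25 Cd3d-low spleens (last column). Rag1, Dntt, Ptcra and Il2ra are bright in spleens 2, 6 and 7 and at the floor in spleen 5, which is brightest for Cd28, Itm2a and Hivep3, and spleens 1 and 3 keep Col5a1, Car1 and Klf1 near the Cd3d-low median.

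Spleen 5 was the highest of the 7 for several genes, of which Itm2a, Cd28 and Hivep3 were singled out after their values were seen. Itm2a, a membrane protein of activated and positively selected T cells, was at 9.97 in spleen 5 and at 6.32 to 8.84 in the other 6, against at most 6.22 in the Cd3d-low spleens (2.24 ± 0.26, limma adjusted p = 1.76e-07). Cd28, the co-stimulatory receptor, was at 9.04 against 5.57 to 7.79 in the other 6 (1.87 ± 0.22, limma adjusted p = 1.8e-07). Hivep3, a zinc finger factor, was at 9.35 against 5.89 to 7.85 (1.84 ± 0.23, limma adjusted p = 6.34e-07), and Cd5, a negative regulator of receptor signalling, at 7.42 against 5.35 to 6.81 (1.05 ± 0.15, limma adjusted p = 3.58e-06). For each of these 4 genes all 7 Cd3d-high spleens were above all Cd3d-low spleens. Of the 4 other probe sets of Hivep3, 2 were called in the same direction.

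The spread among the 7 spleens was described over the 63 called T cell list members. Spleen 6 had the highest value of the 7 in 20 of them, spleen 2 in 14, spleens 5 and 7 in 13 each, spleen 4 in 2, spleen 1 in 1 and spleen 3 in 0. Spleen 3 had the lowest value in 28, spleen 1 in 15, spleen 5 in 13 and spleen 4 in 7. Spleen 5 was therefore often at one end or the other, while spleens 2, 6 and 7 were never the lowest. The number of the 63 genes above every Cd3d-low spleen was 28 in spleen 3, 36 in spleen 1, 38 in spleen 5, 47 in spleen 4, 55 in spleen 2 and 56 in each of spleens 6 and 7.

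Genes of naive and recirculating T cells were also higher in 21 of 28 tested members, with 2 lower and a median difference of 0.48; 2 of the 28 also belong to the other T cell lists. Gimap4, a GTPase of lymphocyte survival, was at 6.74 to 9.28 against at most 7.02 (2.09 ± 0.21, limma adjusted p = 1.71e-08). Il7r, the receptor for a survival cytokine of lymphocytes, was at 5.76 to 6.93 against at most 6.02 (0.83 ± 0.11, limma adjusted p = 1.22e-06), with spleens 3 and 4 inside the Cd3d-low range. The 2 lower members were the integrin genes Itga4 (-0.50 ± 0.15) and Itgb7 (-0.57 ± 0.18).

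Of 30 tested genes of cytotoxic and effector lymphocytes, 7 were higher and 1 lower, with a median difference of 0.09. Leaving out 1 spleen gave 4 higher without spleen 5 or 6 and up to 10 without spleen 1 or 3. Gzma, a granule protease of cytotoxic T and NK cells, was at 7.61 to 10.88 (median 9.75) against 5.28 to 8.01 (median 5.53), a difference of 3.69 ± 0.32 (limma adjusted p = 1.77e-09), or 12.9-fold. Spleen 4 was highest for Gzma, and spleens 1 and 3, at 7.61 and 7.84, lay below the Cd3d-low spleen with Cd3d at 6.79. Il2rb differed by 0.38 ± 0.07 (limma adjusted p = 0.000187), Prf1, perforin, by 0.32 ± 0.11 (limma adjusted p = 0.0466), and Gzmb did not pass (0.52 ± 0.32, limma adjusted p = 0.262). Of 13 tested NK cell genes 0 were higher and 0 lower with limma, and 2 had an unadjusted p under 0.05; 1 was higher without spleen 1, 5 or 7. Ncr1, an activating receptor of NK cells, was at the floor on both sides (5.05 to 5.17 against 5.02 to 5.19), and Tyrobp, the smallest p of the list, differed by 0.49 ± 0.18 (adjusted p = 0.0566).

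Of 26 tested genes of regulatory and activated T cells, 13 were higher and 0 lower, with a median difference of 0.17, and 3 of the 13 are also in the T cell lists. Ikzf2 (Helios) was at 5.91 to 8.15 with 1 Cd3d-low spleen at 8.06 (1.52 ± 0.26, limma adjusted p = 5.64e-05), Icos differed by 1.00 ± 0.20 and Pdcd1, the receptor PD-1, by 0.75 ± 0.14. Ctla4 differed by 0.48 ± 0.08, with spleen 6 highest at 6.25. Foxp3, the factor that defines regulatory T cells, did not pass (-0.01 ± 0.02, limma adjusted p = 0.830).

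**Figure D4:**
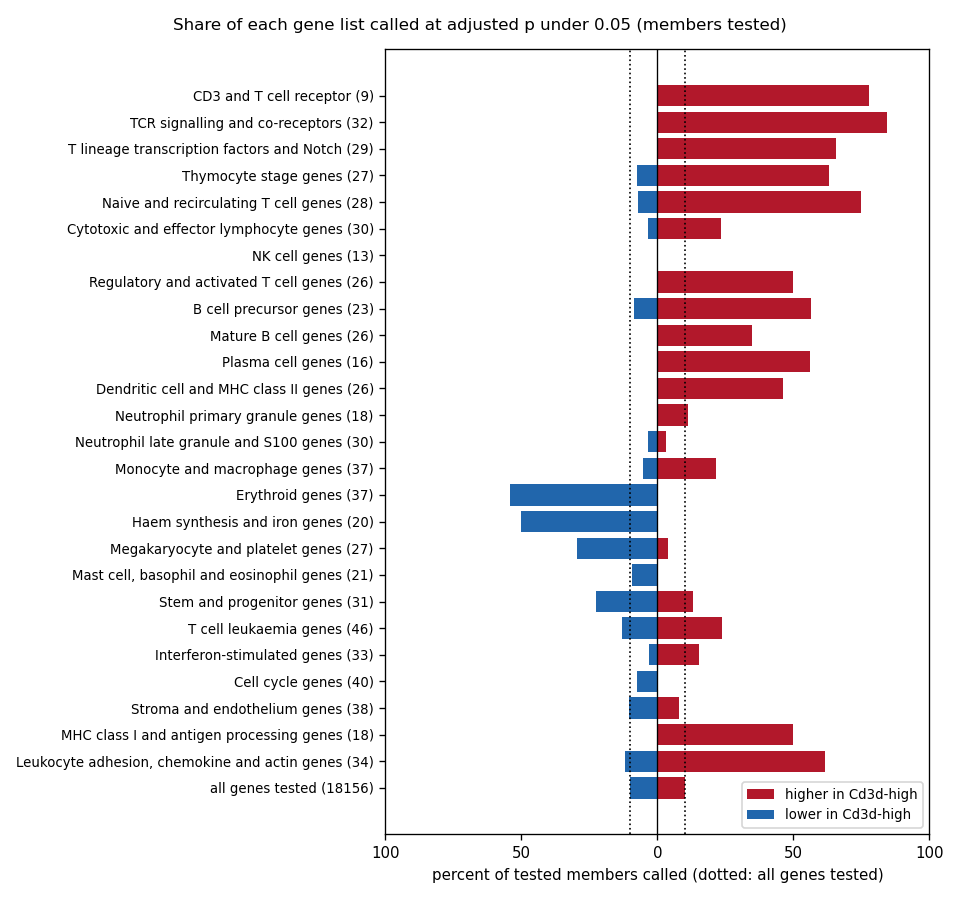
Percent of the tested members of each of 26 gene lists (number tested in brackets) called higher (red, to the right) or lower (blue, to the left) in Cd3d-high spleens, with dotted lines at the shares over all genes tested, 10.3% and 10.2%. The T cell lists reach furthest to the right, with 27 of 32 receptor signalling genes, and the erythroid list furthest to the left, with 20 of 37.

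Markers of other blood cells moved with the comparison, and their part in the T cell results was not tested. Among B cell precursor genes, 13 of 23 were higher and 2 lower, with a median difference of 0.40 and a mean level of 6.06 to 6.69 in the Cd3d-high and 5.58 to 6.11 in the Cd3d-low spleens. With all 47 arrays 4 were higher, in a fit where 888 of 18176 genes were higher. Of the 13, 5 are also in the T cell lists, and the defining B lineage genes Cd79a (0.03 ± 0.04, limma adjusted p = 0.552), Pax5 (-0.04 ± 0.02, 0.177) and Ebf1 (0.11 ± 0.06, 0.247) did not pass; Cd79a was at 5.17 to 5.39. Sox4, a factor of T and B precursors, was at 7.61 to 9.69 against at most 7.96 (2.36 ± 0.26, limma adjusted p = 7.51e-08), and 4 of its 7 other probe sets were called in the same direction. Mature B cell genes were higher in 9 of 26, or 5 without spleen 5 and 2 with all 47 arrays, with a median difference of 0.19; Ltb differed by 1.11 ± 0.19, and Ms4a1, which encodes CD20, did not pass (0.43 ± 0.21, limma adjusted p = 0.152). Plasma cell genes were higher in 9 of 16, or 3 with all 47 arrays, with a median of 0.25; Edem1 differed by 1.34 ± 0.20, and Sdc1, which encodes CD138, was at 5.39 to 6.67 against at most 5.32 (0.69 ± 0.11, limma adjusted p = 1.44e-05).

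Monocyte genes were higher in part. Csf1r, the receptor of the macrophage growth factor, was at 6.90 to 10.66 (median 8.92) against 6.94 to 8.26 (median 7.48), a difference of 1.14 ± 0.27 (limma adjusted p = 0.00239), with spleen 4 highest and spleen 1 below every Cd3d-low spleen. Lyz2, a lysozyme gene, was at 7.97 to 10.64 against at most 9.93 (1.56 ± 0.28, limma adjusted p = 0.000145), and spleen 1 was again the lowest. Cd5l, a gene of spleen macrophages, was lower, at 5.64 to 7.72 against 6.91 to 8.28 (-1.15 ± 0.20, limma adjusted p = 6.94e-05). Of 37 tested monocyte and macrophage genes, 8 were higher and 2 lower, with a median difference of 0.18 and mean levels of 6.26 to 7.40 against 6.17 to 6.97; 12 were higher without spleen 1, 5 without spleen 2, 4 without spleen 4 and 5 without spleen 6. With the 3′ to 5′ control difference as a covariate 10 were higher, and over all 47 arrays 0 in limma. The fit with all 47 arrays called 888 of 18176 genes higher. Genes of MHC class II and dendritic cells were higher in 12 of 26, or 7 with all 47 arrays, with a median of 0.22 and mean levels of 5.77 to 6.29 against 5.61 to 6.08; H2-Aa was at 7.41 to 9.42 against 6.10 to 8.69 (1.18 ± 0.26, limma adjusted p = 0.00132).

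Granulocyte genes were mostly without a call: 2 of 18 primary granule genes were higher and 0 lower, and 1 of 30 late granule genes was higher and 1 lower. Over all genes tested, 10.3% were higher and 10.2% lower. The 2 primary granule list members were Gfi1, a repressor also used in T cell development, at 5.79 to 6.79 against at most 5.49 (1.14 ± 0.09, limma adjusted p = 6.88e-10), and Plac8, at 7.59 to 9.83 against at most 9.20 (1.83 ± 0.34, limma adjusted p = 0.000201). Mpo, myeloperoxidase, was at 8.18 in spleen 4 and at 5.25 to 6.12 in the other 6 (0.29 ± 0.35, limma adjusted p = 0.610). S100a8, a calcium-binding protein of neutrophils, was at 7.71 to 10.64 against 5.05 to 11.71 (1.73 ± 0.73, limma adjusted p = 0.0939), so the ranges overlapped widely. Csf3r, the granulocyte growth factor receptor, was at 5.22 to 5.57 in all 7 spleens against 5.23 to 8.66 with a median of 7.46 (-1.41 ± 0.45, limma adjusted p = 0.0223).

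Red cell genes were lower in the Cd3d-high spleens, most of all in spleens 6 and 7. Of 37 tested erythroid genes, 20 were lower and 0 higher, with a median difference of -0.71, and over all 47 arrays, with Vpreb1 ignored, 11 were lower. With all 47 arrays 492 of 18176 genes were lower, against 1848 of 18156 in the main comparison. Gata1, the master factor of red cells and megakaryocytes, was at 5.64 to 7.85 (median 6.10) against 7.61 to 8.30 (median 7.97), a difference of -1.45 ± 0.17 (limma adjusted p = 1.93e-07), and 6 of 7 spleens were below every Cd3d-low spleen. Klf1, the globin gene activator, was at 6.39 to 9.40 (median 7.53) against 7.69 to 9.76 (-1.49 ± 0.26, limma adjusted p = 6.94e-05). Spleens 1 and 3, at 9.40 and 8.96, lay inside the Cd3d-low range for Klf1, and spleens 2, 5, 6 and 7 lay below it.

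Car1, carbonic anhydrase of early red cells, was at 7.30 to 11.42 (median 8.45) against 6.49 to 11.57 (median 11.16), a difference of -1.81 ± 0.49 (limma adjusted p = 0.00762). Nfe2, a factor of red cells and platelets, was at 6.00 to 8.88 against 8.13 to 10.02 (-1.67 ± 0.27, limma adjusted p = 2.75e-05). The surface protein gene Ermap (-1.51 ± 0.23) and the iron sensor Tfr2 (-1.35 ± 0.19) were also lower. Among the 17 members that did not pass, Slc4a1, the band 3 anion exchanger, differed by 0.29 ± 0.40 (limma adjusted p = 0.658), Alas2, the first enzyme of haem synthesis in red cells, by -0.22 ± 0.36 (0.718) and Hbb-b2, a beta globin, by -0.40 ± 0.28 (0.335).

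Of 20 tested haem and iron genes, 10 were lower and 0 higher, with a median of -0.31. Over all 47 arrays 3 were lower, in a fit where 492 of 18176 genes were lower. Glrx5, which acts in iron-sulphur cluster assembly, was at 8.76 to 10.09 against 9.89 to 10.62 (-0.84 ± 0.11, limma adjusted p = 1.91e-06), and Cpox, an enzyme of haem synthesis, at 5.75 to 7.69 against 7.32 to 8.18 (-1.12 ± 0.16, limma adjusted p = 4.07e-06). For each of these, 6 of 7 spleens were below every Cd3d-low spleen. Megakaryocyte genes were lower in 8 of 27 and higher in 1, with 5 lower without spleen 2 or spleen 5 and 4 without spleen 6 or spleen 7. Gp5, a platelet glycoprotein, differed by -1.08 ± 0.29 (limma adjusted p = 0.00742), and Pf4, platelet factor 4, did not pass (-0.78 ± 0.56, limma adjusted p = 0.351).

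The remaining genes among the 15 largest negative differences were not all erythroid. Col5a1, a fibrillar collagen gene, was at 5.44 to 9.24 (median 6.02) against 8.02 to 9.62 (median 8.93), a difference of -2.07 ± 0.34 (limma adjusted p = 4.29e-05), the largest of the called negative differences. Spleens 1 and 3 kept it at 9.24 and 8.82, and the other 5 lay below every Cd3d-low spleen. Rfk (riboflavin kinase), Bex4, Tmem40, Clca3a1, Vamp5, Ces2g, Mt2, Asns, Ptger3 and Emilin2 differed by -1.50 to -1.75, and spleens 1 and 3 were above every other Cd3d-high spleen for Col5a1, Car1, Rfk, Bex4, Nfe2, Tmem40, Clca3a1, Vamp5, Lmo2, Ces2g, Asns, Ermap and Emilin2. The other probe set of Ptger3 was not called. Of 38 tested stroma and endothelium genes, 3 were higher and 4 lower, or 7 lower after median centring, with a median of -0.01. The counts of 3 and 4 lie near the shares over all genes tested, 10.3% higher and 10.2% lower. After centring, 3795 of all 18156 genes were lower, and the count of 7 does not exceed that share. The 4 lower members were Col5a1 and the endothelial genes Kdr (-0.28 ± 0.07, limma adjusted p = 0.00335), Mmrn2 (-0.23 ± 0.07, 0.012) and Cdh5 (-0.21 ± 0.07, 0.0277). The 3 higher members were Pdgfrb, a receptor of stromal cells (0.76 ± 0.20, limma adjusted p = 0.00596), Col6a1 (0.23 ± 0.08, 0.0411) and Pecam1 (0.15 ± 0.06, 0.0465).

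**Figure D5:**
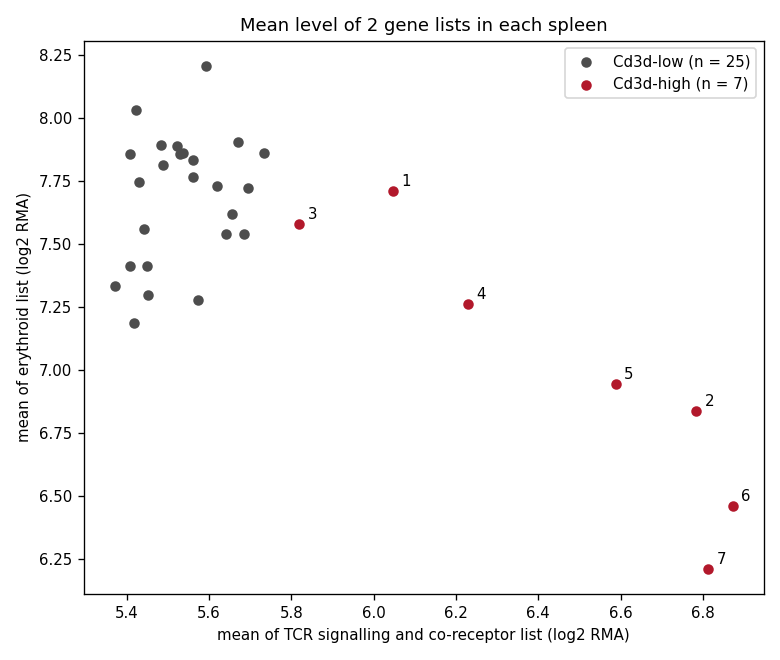
Mean log2 level of the receptor signalling and co-receptor list (x axis) against that of the erythroid list (y axis) in each of 25 Cd3d-low (grey) and 7 Cd3d-high (red, numbered) spleens. The Cd3d-high spleens run from spleens 3 and 1, beside the Cd3d-low spleens, to spleens 6 and 7, with erythroid means of 6.21 to 7.71 in the Cd3d-high against 7.19 to 8.21 in the Cd3d-low spleens.

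The 2 sets of genes therefore ordered the 7 spleens in nearly opposite ways. The mean of the receptor signalling list was lowest in spleen 3 at 5.82 and highest in spleen 6 at 6.87, against 5.37 to 5.73 in the Cd3d-low spleens. Of the 20 called erythroid genes, the number below every Cd3d-low spleen was 0 in spleen 1, 2 in spleen 3, 9 in spleen 4, 12 in spleen 5, 14 in spleen 2, 18 in spleen 6 and 19 in spleen 7. Across all genes, spleens 1 and 3 correlated with the mean of the Cd3d-low spleens at 0.981 and 0.988 and with the mean of the other Cd3d-high spleens at 0.966 each, while the other 5 correlated more with the Cd3d-high mean (0.970 to 0.985) than with the Cd3d-low mean (0.916 to 0.945). Pairs of Cd3d-high spleens had a median correlation of 0.949, pairs of Cd3d-low spleens 0.971 and pairs across the sides 0.925; these values describe 18156 genes that share the arrays' normalisation.

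Called members of the stem cell and leukaemia lists did not share a direction. Lmo2, a blood stem cell and T cell leukaemia gene, was at 6.78 to 9.70 against 8.87 to 10.01 (-1.60 ± 0.23, limma adjusted p = 6.87e-06), and its partners Tal1 (-1.21 ± 0.23, limma adjusted p = 0.000189) and Lyl1 (-1.06 ± 0.21, limma adjusted p = 0.000373) were lower too. Of 46 tested genes of T cell leukaemia, 11 were higher and 6 lower with a median of -0.00, and 7 of the 11 are also in the T cell lists; those outside them include Mycn (0.60 ± 0.12) and Trib2 (0.93 ± 0.22). Of 31 stem and progenitor genes, 4 were higher and 7 lower, or 4 lower without spleen 2, 5 or 6. The 6 lower leukaemia genes and the 4 higher stem and progenitor genes are close to the shares over all genes tested, 10.3% higher and 10.2% lower. Msi2, an RNA-binding protein, differed by 0.45 ± 0.06, and Kit (-0.18 ± 0.14, limma adjusted p = 0.405) and Flt3 (0.01 ± 0.10, limma adjusted p = 0.939) did not pass.

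Erg, the ETS factor named in the insertion labels, was at 5.08 to 5.86 in 6 Cd3d-high spleens and at 7.77 in spleen 3, against 5.08 to 8.28 with a median of 7.31 in the Cd3d-low spleens. The difference was -1.23 ± 0.41 (limma adjusted p = 0.0289), and the call was lost in 5 of the 7 fits that left out 1 Cd3d-high spleen, with an adjusted p of up to 0.0806. Its other probe set was not called. Eras, an embryonic Ras gene, was at the floor in all 7 spleens, at 4.94 to 5.17, and ran from 4.94 to 11.01 in the Cd3d-low spleens (-1.73 ± 0.81, limma adjusted p = 0.133).

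Genes shared by many white cells were higher. Ptprc, which encodes CD45, was at 8.20 to 10.13 (median 9.76) against 6.02 to 8.43 (2.43 ± 0.27, limma adjusted p = 8.35e-08), and Coro1a, an actin regulator of leukocytes, at 7.83 to 9.49 against 5.44 to 7.88 (2.46 ± 0.31, limma adjusted p = 7.86e-07). In each, 6 of 7 spleens were above every Cd3d-low spleen and spleen 3 was the exception. Of 34 tested genes of adhesion, chemokine response and actin, 21 were higher and 4 lower, with a median of 0.56; over all 47 arrays 10 were higher. Psmb8, an immunoproteasome subunit, was at 7.22 to 9.31 against at most 7.03 (2.16 ± 0.21, limma adjusted p = 1.24e-08), and 9 of 18 MHC class I and processing genes were higher and 0 lower, while the heavy chain H2-K1 (0.24 ± 0.26, limma adjusted p = 0.574) and B2m (0.33 ± 0.22, limma adjusted p = 0.319) did not pass. Of 33 interferon-stimulated genes 5 were higher and 1 lower, or 3 higher without spleen 2, 4 or 6 and 2 higher with all 47 arrays, and spleen 6 alone was high for Cxcl9 at 9.28 and Gbp6 at 8.41. Of 40 cell cycle genes 0 were higher and 3 lower, or 7 lower without spleen 1; Mki67 was at 8.96 to 9.85 against 9.50 to 10.54 (-0.40 ± 0.12, limma adjusted p = 0.0123), a call lost in 1 of the 7 fits that left out a spleen (adjusted p up to 0.0635). Of 21 mast cell, basophil and eosinophil genes 0 were higher and 2 lower, with differences of -0.10 for Ccr3 and -0.05 for Tpsb2 near the floor, calls lost in 4 and 1 of those fits. The shares over all genes tested were 10.3% higher and 10.2% lower. The counts of the interferon-stimulated, cell cycle and mast cell lists lie near or below these shares. Without spleen 1, 1987 of 18168 genes were lower, and with all 47 arrays 888 of 18176 were higher.

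The spleens just below the Cd3d threshold had several T cell genes above the Cd3d-low medians. The 2 Cd3d-low spleens with Cd3d at 6.79 and 6.54 had Trbv1 at 7.99 and 7.02, Gzma at 8.01 and 6.99, Notch1 at 6.92 and 6.27 and Bcl11b at 6.49 and 6.15, above the Cd3d-low medians of 5.34, 5.53, 5.72 and 5.23. The Gzma value of 8.01 lies inside the Cd3d-high range. Their red cell genes stayed near the Cd3d-low medians, with Klf1 at 9.14 and 9.18 (median 9.40) and Gata1 at 7.95 and 7.88 (median 7.97), and Col5a1 was at 9.04 and 9.16 (median 8.93). The 2 spleens left out for Vpreb1, at 10.11 and 8.47, had Cd3d at 7.36 and 7.79. In them Cd3g was at 6.32 and 6.84, Bcl11b at 6.46 and 7.47, Rag1 at 7.65 and 6.46, and Notch1 at 6.59 and 5.90, while Pou2af1, a B cell coactivator, was at 9.17 and 7.43 against 5.81 to 7.01 in the 7 Cd3d-high spleens. Thy1 was at 5.39 and 8.06, Dtx1 at 6.08 and 8.04, Gzma at 6.46 and 8.11 and Cd8a at 5.48 and 7.33. For each of these last genes the second spleen lay inside the Cd3d-high range, while for Cd3g both spleens lay below it.

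The labels of the mice did not separate the sides. An Erg insertion was labelled in 5 of 7 Cd3d-high and 16 of 25 Cd3d-low spleens (two-sided Fisher's exact test, p = 1), line 6070 in 4 of 7 and 16 of 25 (p = 1) and female sex in 3 of 7 and 14 of 25 (p = 0.678). Age, whose unit was not given, was 71.6 ± 21.1 (SD, n = 7) against 64.8 ± 15.6 (SD, n = 25; two-sided exact permutation test, p = 0.356), and the Benjamini-Hochberg adjusted p over these 4 tests was 1 in each case. Sex as read from Xist, with log2 7 as the limit, matched the label in only 3 of the 7 Cd3d-high and 11 of the 25 Cd3d-low arrays, so which label belongs to which array is in doubt. The 3′ to 5′ difference of the array's control probe sets, a sign of RNA degradation, was 1.25 ± 0.43 (SD, n = 7) against 1.44 ± 0.39 (SD, n = 25; two-sided exact permutation test, p = 0.275).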

How the data were processed

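RNA from 47 leukaemic spleens, 1 array per mouse, was measured on Affymetrix Mouse Genome 430 2.0 arrays. The deposited log2 values were made by the authors with RMA (background subtraction, quantile normalisation and probe set summary) in the affy package of R 2.15, per the submitters' processing notes. Scanner files were not used here, and the number of arrays on each side limits the precision.

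Of 45101 probe sets, 34945 were named for 1 gene by the platform annotation, 932 for several and 9160 for none, and 64 were array controls. The probe set with the highest mean over the 47 arrays stood for each of 18193 genes. Genes above log2 5 in at least 7 of the 32 arrays were tested, which removed 35 and left 18156 beside Cd3d and Vpreb1, which were not tested. Sides were set by Cd3d and Vpreb1 at log2 7. The test was limma 3.58.1 (lmFit, eBayes, no covariates) run in R 4.3.3; p-values were adjusted by Benjamini-Hochberg over the 18156 genes, with a threshold of 0.05, and the procedure was tested on simulated data. Labels were compared with Fisher's exact and exact permutation tests (scipy 1.17.1).

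The spleens, the thresholds and the 26 gene lists were chosen with earlier results of these data known. Genes named were Cd3d, Vpreb1, Cd3g, Bcl11b and Thy1, the 15 largest called differences in each direction, from each list the 4 called members of smallest adjusted p (in lists without a call, the 2 members of smallest p) and defining genes of other blood cells. Other genes were named after their values were seen: Rag1, Rag2, Dntt, Ptcra, Cd8b1, Hes1, Nrarp, Cd28, Itm2a, Hivep3, Trgv1, Trgv4, Trav9d-3, Trav6-3, Trav12n-2, Tox, Ikzf1, Kit, H2-Aa and those whose difference is given without levels. List members without a probe set of their own were not analysed here. Alternatives were other Cd3d and Vpreb1 limits, Cd3d as a continuous measure, all 47 arrays, other filters and probe sets, array weights, a trended prior, the labels or control probe sets as covariates, median centring and leaving out spleens. The genome build of the array annotation is not given in the sources used here. Promoters were matched by symbol for 1482 of 1868 higher and 1475 of 1848 lower genes.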

Additional observations from a re-analysis of the deposited data

Results flagged for a closer look

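Among the 117 genes named by the rule and tested for it, 9 had 1 of the 7 Cd3d-high spleens far from the other 6; by the limit used, chance flags about 1 in 20 such groups. Spleen 6 stood apart for 3 interferon-induced genes, Cxcl9 at 9.28, Gbp6 at 8.41 and Irf1 at 8.29. Spleen 5 stood apart for Cxcr6, a chemokine receptor, at 6.28. It did so too for the B cell gene Cd79a at 5.39, although all 7 spleens lay near the floor for that gene, at 5.17 to 5.39. It also stood apart for Trav6-3 at 6.34 and Trav12n-2 at 6.05, but these segments were named because spleen 5 was high for them and are not among the 9. Spleen 4 stood apart for the myeloid genes Mpo at 8.18 and Flt3 at 6.03. Spleen 3 stood apart for Erg at 7.77 and Ptger3, a prostaglandin receptor gene, at 8.02. Cd3d was also above 7 in 2 arrays outside the comparison, at 7.36 and 7.79.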

How the results depend on the processing

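The counts of genes kept within 1.5 times of 1868 higher and 1848 lower under most alternatives. With all 47 arrays they were 888 higher and 492 lower; a filter at log2 6, which tests 6049 genes, gave 851 higher; a Cd3d threshold of 6.5 gave 1150 lower, and centring each array on its median gave 3795 lower. The share of calls that were higher was 38.1% with that filter and 64.4% with all 47 arrays. Leaving out 1 Cd3d-high spleen gave 1516 to 2052 higher and 1148 to 2104 lower, with 1148 lower without spleen 6. Over all genes, 2 that were called in the main comparison were called in the opposite direction with the probe set of largest variance. Among the named genes, all differences that changed sign were of genes without a call. Cd79a was -0.11 with all 47 arrays. Ncr1 was -0.0115 at 6.5, -0.0018 with Cd3d continuous, -0.0010 with all 47 arrays, -0.0002 with array weights and -0.0093 after centring. Mpo ran from -0.0702 without spleen 4 to 0.4174 without spleen 6. Flt3 was -0.0015 at 6.5, -0.0040 with Cd3d continuous, -0.74 with all 47 arrays and -0.0005 with array weights. Flt3 was also -0.0029 with labels as covariates, -0.0051 after centring and from -0.0931 without spleen 4 to 0.0419 without spleen 1. The difference in percent labelled with an Erg insertion was -14.0 at 6.5, and for line 6070 it was 5.13 at 7.5. The cause of these shifts was not tested. Of the named genes' values under alternatives, 3115 kept direction and side of the threshold, 74 lost and 11 gained the call and 14 changed sign; 36 of the 74 came with all 47 arrays. No paired analysis was possible because the replicate numbers follow the order of deposition and pair no mice across the sides. Alternatives added after seeing the data left out the Cd3d-low spleens with Cd3d above 6 (1822 higher, 1834 lower) or spleens 3 and 5 (1840 higher, 1603 lower).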
